A study of Homo sapiens with 18 samples.

Results

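The genes described here are 38 members of the unfolded protein and amino acid response, which make the endoplasmic reticulum (ER) chaperones, the sensors of ER and amino acid stress, the targets of the transcription factor ATF4, and the enzymes and transporters that supply amino acids. They are a list of names, ASS1 included, with no measured value in the rule, although it was drawn up with earlier results of these data known. Each of the 38 was found once in each of the 6 deposited tables, among 26702 genes in all. By role they are 12 ER chaperones and folding enzymes, 10 sensors and transcription factors, 5 stress feedback and other ATF4 target genes, 7 genes of amino acid synthesis and 4 of amino acid transport.

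The cells were U2OS, an osteosarcoma line, transfected with siControl, siANKRA2 or siRFXANK and then given DMSO solvent or 10 µM Nutlin-3a for 24 h. Each of the 6 groups had 3 samples, 18 in all, and polyadenylated RNA was sequenced. Nutlin-3a frees p53 from its inhibitor MDM2, while ANKRA2 and RFXANK are related ankyrin repeat proteins, RFXANK being a partner of RFX transcription factors. The siRFXANK samples were registered apart from the others and have only the shared siControl samples to be set against, so in siRFXANK over siControl a batch and the siRNA cannot be told apart. Their labels call the cells epithelial and the tissue bone. Of the osteoblast lineage markers, COL1A1 had a deposited mean of 64042 normalized counts and RUNX2 of 454, ALPL of 148 and SPP1 of 204, while COL1A2, the partner chain of COL1A1, was at 33.2, BGLAP was at 2.08 and SP7 and IBSP were not in the tables. Of the epithelial markers, KRT8 was at 21456 and KRT18 at 12960, EPCAM at 161 and CDH1 at 32.9, while KRT5 at 3.56 and KRT19 at 1.67 were near 0. PTPRC, PECAM1, CDH5, MYOD1 and DES, which mark leukocytes, endothelium and muscle, had means of at most 5.72. By these means the markers of both labels were present in part, and they do not separate one from the other. Each mean is a single value over the submitters' samples, and whether these were only the 18 described here was not established.

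The unfolded protein response begins when misfolded protein gathers in the ER and the sensors IRE1 (gene ERN1), PERK (gene EIF2AK3) and ATF6 become active, after which chaperones are made and protein synthesis is slowed. PERK and the kinase GCN2, which senses a lack of amino acids, both phosphorylate the initiation factor eIF2α, and this favours translation of ATF4, a transcription factor for genes of amino acid synthesis, amino acid uptake and stress feedback. Much of this control acts on splicing, cleavage or translation, so transcript levels of XBP1, ATF6 and ATF4 do not measure the activity of their proteins.

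The tables used here hold comparisons between groups and no values of single libraries, so neither the value in each sample nor the library depth is given. Each fold change is a deposited log2 fold change with its standard error from the joint DESeq2 fit of the submitters, and a gene is called where the deposited adjusted p is under 0.05. Approximate group levels in normalized counts were recovered from the fold changes and their standard errors. The deposited mean of a member was between 0.687 (CANX) and 1.68 (XBP1) times the mean of its 6 recovered levels, with a median of 1.06. For XBP1 the deposited mean of 2458 lies above all 6 levels, the highest being 1589. For CANX the deposited 21948 lies below all 6, the lowest being 28406. The cause was not tested, so levels are read between groups within a gene only. In bulk RNA, fewer cells expressing a gene and less of its RNA per cell cannot be told apart.

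The knockdowns were read as siRNA over siControl. Under this reading ANKRA2 was at a log2 fold change of -1.81 in DMSO after siANKRA2 (standard error 0.18), and RFXANK at -2.96 after siRFXANK (standard error 0.10). Each siRNA also went with a called change of the other target. RFXANK was at -0.37 in DMSO and -0.44 in Nutlin-3a after siANKRA2, and ANKRA2 at 0.73 and 0.46 after siRFXANK. For siRFXANK the reading was checked on the standard errors, which depend on the level of each group. In 1248 of 1248 genes with a mean between 20 and 1000 normalized counts and a called log2 fold change of at least 1 in size, they were closer to those calculated under this reading than under the opposite one.

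Per length, CALR had the highest deposited mean of the members, at 11356 normalized counts per kb of annotated exon, followed by HSPA5 at 5700 and ATF4 at 5026. STC2 was lowest, at 1.21, and was called in none of the 6 tables. The other 37 members were called in at least 1 table, 6 of them in all 6, and 36 members had a mean of at least 100. Calls over several tables were not counted for all genes, so the 37 and the 6 do not set the members apart. Some members share sequence with other annotated genes, so reads may be assigned to either, which makes their values uncertain. Such sharing can come from similar genes elsewhere or from genes that overlap the same locus on either strand. These sources were not told apart. In 18 members at least 10% of the 31-base stretches of the longest transcript are found in other genes as well. Counts are therefore also given over the 20 members without such shared sequence, a choice made after the data were seen.

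In siControl cells Nutlin-3a raised 7 of 38 members (18.4%) and lowered 16 (42.1%), while 21.9% of all genes tested were higher and 21.2% lower. In siANKRA2 cells the counts were the other way round, with 17 members higher (44.7%) and 6 lower (15.8%), beside 15.5% and 17.0% of all genes. The median log2 fold change of the members was -0.08 in siControl and 0.11 in siANKRA2 cells, against 0.02 and 0.01 over all genes. Abundant genes were called more often than all genes, and most members are abundant. Of 13103 genes with that mean, 32.4% were higher and 35.1% lower in siControl, and 21.8% and 26.8% in siANKRA2 cells. Of the 20 members without shared sequence, Nutlin-3a raised 3 and lowered 9 in siControl cells, and raised 7 (35.0%) and lowered 4 in siANKRA2 cells, where the excess of higher members was thus smaller.

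After siANKRA2 in DMSO, 22 members were higher and 14 lower, beside 24.3% and 24.5% of all genes, and in Nutlin-3a 23 were higher and 9 lower, beside 24.6% and 25.5%. The members' median was 0.27 in DMSO and 0.50 in Nutlin-3a, against 0.01 and -0.01 over all genes. Of the abundant genes, those with a mean of 100 or more, 37.7% were higher in DMSO and 38.5% in Nutlin-3a, beside 57.9% and 60.5% of the members. On the lower side they were at 39.2% and 39.6%, and the members at 36.8% in DMSO and 23.7% in Nutlin-3a. Of the 20 members without shared sequence, 80.0% were higher in each treatment, and 3 (15.0%) were lower in DMSO and 1 in Nutlin-3a.

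After siRFXANK, 13 members were higher and 13 lower in DMSO, beside 20.9% and 21.2% of all genes, and 13 higher and 11 lower in Nutlin-3a, beside 19.8% and 19.6%. The members' medians were 0.00 and 0.03. At 34.2% of members in each direction in DMSO, these counts lie near the 34.0% and 35.4% of the abundant genes. They set the members as a whole apart in neither direction. In Nutlin-3a the members' 34.2% and 28.9% were likewise near the 32.1% and 30.6% of the abundant genes. Roles differed, on few members. Of the ER chaperones and folding enzymes, 50.0% were higher in each treatment, with 33.3% lower in DMSO and 16.7% in Nutlin-3a. Of the amino acid synthesis genes, 42.9% were lower in each, with 28.6% higher in DMSO and 14.3% in Nutlin-3a. Of the 6 chaperones without shared sequence, 2 were higher and 3 lower in DMSO, and 3 and 0 in Nutlin-3a. The comparisons of both siRNAs share the siControl samples.

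**Figure D1:**
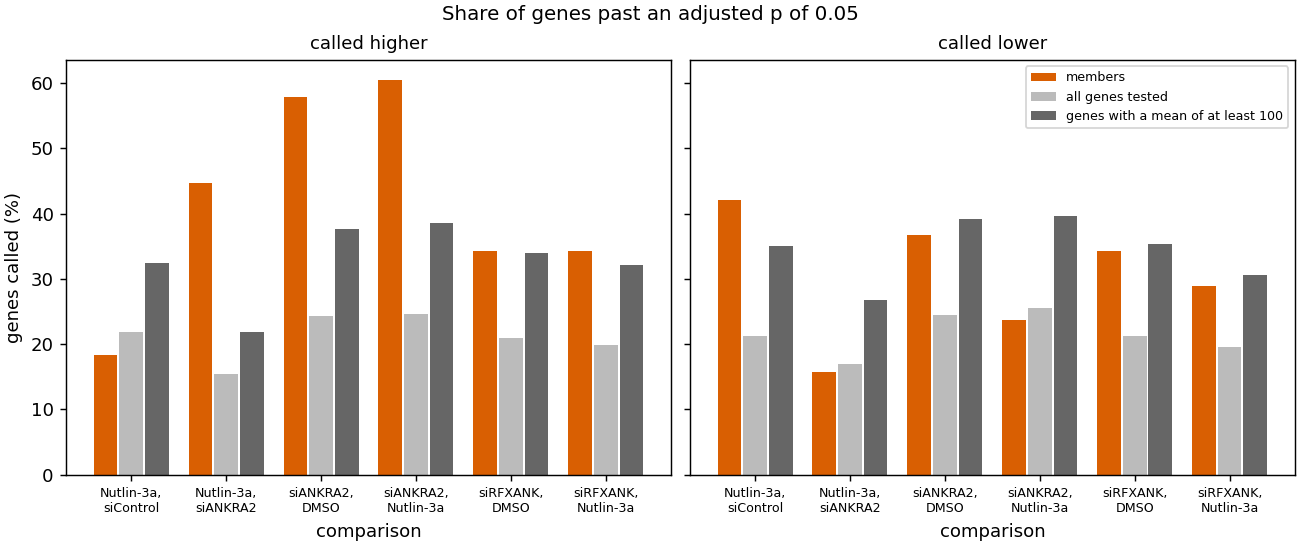
Percent of genes called higher (left) and lower (right) at an adjusted p under 0.05 in the 6 deposited comparisons, for the 38 members, for all genes tested and for genes with a mean of at least 100 normalized counts. The members reach 60.5% higher after siANKRA2 in Nutlin-3a and 42.1% lower with Nutlin-3a in siControl cells.

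**Figure D2:**
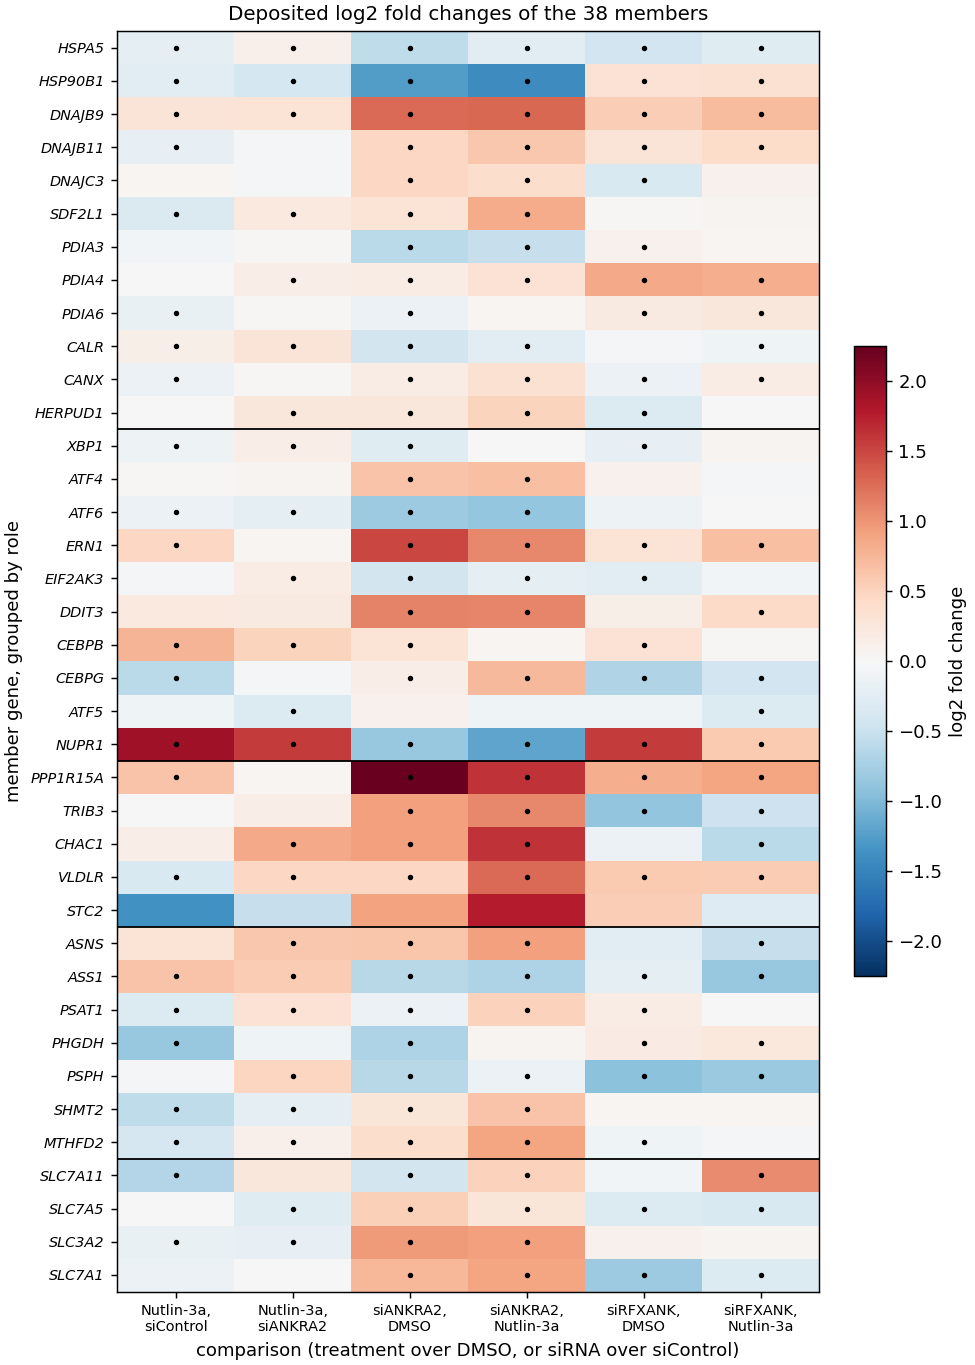
Deposited log2 fold changes of the 38 members (rows, in order of role, with lines between roles) in the 6 comparisons (columns), with a dot where the adjusted p is under 0.05. PPP1R15A, at 2.23 after siANKRA2 in DMSO, is the highest value among the called ones.

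The ER chaperones and folding enzymes went in both directions after siANKRA2, with 7 of 12 higher and 5 lower in DMSO and 7 higher and 4 lower in Nutlin-3a. The lower shares, 41.7% and 33.3%, were near or under those of the abundant genes given above, and the higher share was 58.3% in both. All those lower, in either treatment, share sequence with other genes, and the 6 of this role that do not were higher in both treatments. HSPA5 encodes BiP, the main ER chaperone and a restraint on the stress sensors. Its gene spans 125234853 to 125241330 of chromosome 9 (minus strand; GENCODE 29, GRCh38). Its approximate levels were 22396 normalized counts in siControl DMSO and 19302 in siControl Nutlin-3a, 15005 and 16347 in siANKRA2, and 16579 and 15963 in siRFXANK cells. The siControl DMSO group was the highest. The log2 fold change of HSPA5 with Nutlin-3a was -0.21 in siControl and 0.12 in siANKRA2 cells (standard error 0.03 in each, DESeq2 adjusted p = 4e-10 and 0.00099). After siANKRA2 the values were -0.58 (DMSO) and -0.24 (Nutlin-3a), and after siRFXANK -0.43 and -0.27, all of them called.

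HSP90B1, the ER member of the HSP90 family, had approximate levels of 18784 and 15844 in siControl, 7887 and 5969 in siANKRA2 and 23444 and 20212 normalized counts in siRFXANK cells, in DMSO and Nutlin-3a. Its levels in siANKRA2 cells were thus the lowest in either treatment. HSP90B1 fell after siANKRA2, with log2 fold changes of -1.25 (DMSO; DESeq2 adjusted p = 1.7e-288) and -1.41 (Nutlin-3a), each with a standard error of 0.03, and after siRFXANK 0.32 and 0.35. Nutlin-3a lowered it by a log2 fold change of -0.25 in siControl and -0.40 in siANKRA2 cells. DNAJB9, a co-chaperone of BiP, was called higher in all 6 tables, at 0.29 and 0.31 with Nutlin-3a in siControl and siANKRA2 cells, 1.27 and 1.29 after siANKRA2 in DMSO and Nutlin-3a, and 0.56 and 0.71 after siRFXANK. Its approximate level rose from 361 normalized counts in siControl DMSO to 1078 in siANKRA2 Nutlin-3a.

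SDF2L1, a partner of ER co-chaperones, fell by 0.33 on the log2 scale with Nutlin-3a in siControl and rose by 0.22 in siANKRA2 cells. After siANKRA2 it was higher by 0.30 in DMSO and 0.84 in Nutlin-3a, while its values after siRFXANK, 0.02 and 0.07, were not called. Of the members given by range only, the disulfide isomerase PDIA4 lay between -0.01 and 0.86, with its highest values after siRFXANK, and PDIA3 between -0.60 and 0.10. The ranges were -0.18 to 0.60 for the co-chaperone DNAJB11, -0.35 to 0.46 for DNAJC3, -0.17 to 0.26 for PDIA6, -0.41 to 0.29 for the lectin chaperone CALR, -0.14 to 0.34 for CANX and -0.30 to 0.50 for HERPUD1, which acts in the degradation of ER proteins. HSPA5, HSP90B1, CALR and PDIA3 were lower after siANKRA2 in both treatments, and PDIA6 in DMSO (-0.14), while its value of 0.05 in Nutlin-3a was not called. The other 7, DNAJB9, DNAJB11, DNAJC3, SDF2L1, PDIA4, CANX and HERPUD1, were higher in both.

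Many chaperone genes are known to carry the ER stress element, CCAAT followed after 9 bases by CCACG, near their start, and genes of the amino acid response a C/EBP-ATF element. Promoters from RefSeq (GRCh38.p14) were found for 33 of the 38 members, 51 promoters in all, and the 250 bases before each start were searched on both strands. The ER stress element was in 7 of the 51 member promoters, those of HSPA5, HSP90B1, PDIA6, CALR, CANX and XBP1, and in 26 of all 35116 promoters (0.0740%). The CANX promoters among them overlap and hold the same site. By gene the element was in 6 of the 33 members and in 25 of 27305 genes (0.0916%). A second form, ATTGG followed after 1 base by CCACG, was in the promoters of SDF2L1 and HERPUD1 and in 18 of all promoters (0.0513%). The core TGATGNAA of the C/EBP-ATF element was in those of HERPUD1, CEBPG, CHAC1 and ASNS and in 3.14% of all promoters, and the element TGACGTGG in none of the members' and 0.612% of all. These elements were first described in genes of this kind, so the matches are a description of the members. The stretches below, 5′ to 3′ on the strand of the gene, show the elements in capitals for 9 of the 11 members with a match, without HSP90B1 and CANX, which have longer stretches of annotated exon, 146 and 41 bases. The shorter stretches of CHAC1 and ASNS also lie wholly in annotated exons, and those of PDIA6 and XBP1 do so over 3 and 6 bases. The 9 are from chr9:125241380-125241420 (minus strand) for HSPA5, chr2:10812842-10812882 (minus) for PDIA6, chr19:12938373-12938413 (plus) for CALR, chr22:28800592-28800632 (minus) for XBP1, chr22:21642103-21642135 (plus) for SDF2L1, chr16:56931955-56932046 (plus) for HERPUD1, chr19:33374060-33374089 (plus) for CEBPG, chr15:40953251-40953280 (plus) for CHAC1 and chr7:97872458-97872487 (minus) for ASNS.
HSPA5: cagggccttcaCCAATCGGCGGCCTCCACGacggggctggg
PDIA6: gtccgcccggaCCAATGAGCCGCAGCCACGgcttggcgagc
CALR: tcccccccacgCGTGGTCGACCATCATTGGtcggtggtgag
XBP1: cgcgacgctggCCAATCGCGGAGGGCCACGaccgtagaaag
SDF2L1: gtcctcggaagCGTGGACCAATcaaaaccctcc
HERPUD1: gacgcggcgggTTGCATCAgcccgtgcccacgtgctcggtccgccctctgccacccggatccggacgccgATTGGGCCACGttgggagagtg
CEBPG: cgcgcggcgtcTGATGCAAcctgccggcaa
CHAC1: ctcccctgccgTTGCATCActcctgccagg
ASNS: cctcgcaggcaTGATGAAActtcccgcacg

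Members with the same element differed in direction. HSPA5, HSP90B1 and CALR were lower after siANKRA2 in both treatments and PDIA6 and XBP1 in DMSO, while CANX was higher in both. Of these, XBP1 and CANX do not share sequence with other genes as defined above, and between them the directions differed in DMSO only, since XBP1 was not called in Nutlin-3a. SDF2L1 and HERPUD1, which carry the second form, were higher after siANKRA2 in both treatments. CEBPG, CHAC1 and ASNS were also higher there, in DMSO and in Nutlin-3a.

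Of the 10 sensors and transcription factors, 5 were higher and 4 lower after siANKRA2 in DMSO, and 4 higher and 3 lower in Nutlin-3a. The 4 of 10 higher in Nutlin-3a lie near the 38.5% of the abundant genes and the 3 lower under their 39.6%, and in DMSO the 4 lower lie near 39.2% and the 50.0% higher above 37.7%. ERN1 encodes IRE1, the kinase and RNase that splices XBP1 transcripts. Its approximate levels were 621 and 862 normalized counts in siControl, 1765 and 1819 in siANKRA2 and 772 and 1371 in siRFXANK cells. The log2 fold change of ERN1 after siANKRA2 was 1.51 in DMSO and 1.08 in Nutlin-3a (standard error 0.06 in each), and after siRFXANK 0.31 and 0.67. With Nutlin-3a it was 0.47 in siControl cells (standard error 0.07, DESeq2 adjusted p = 9.6e-12), and at 0.04 it was not called in siANKRA2 cells. ATF6, the sensor that is cleaved into a transcription factor, went the opposite way, at -0.82 and -0.87 after siANKRA2 in DMSO and Nutlin-3a (standard error 0.05 in each). Nutlin-3a lowered ATF6 by a log2 fold change of -0.14 in siControl and -0.20 in siANKRA2 cells, and its values after siRFXANK, -0.11 and 0.00, were not called. EIF2AK3, the gene of PERK, ranged from -0.41 to 0.16.

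XBP1, whose spliced transcript encodes an activator of ER chaperone genes, fell slightly with Nutlin-3a in siControl cells (-0.12) and rose in siANKRA2 cells (0.15). It was at -0.27 after siANKRA2 and -0.19 after siRFXANK in DMSO, and its values in Nutlin-3a, 0.00 and 0.06, were not called. The tables count genes, so spliced and unspliced XBP1 were not measured apart. The ATF4 gene spans 39519695 to 39522685 of chromosome 22 (plus strand). Levels of ATF4 were approximately 12756 and 12903 normalized counts in siControl, 19925 and 20709 in siANKRA2, and 13532 and 12611 in siRFXANK cells. The siANKRA2 groups thus stood above the other 4. With siANKRA2, ATF4 had log2 fold changes of 0.64 (DMSO) and 0.68 (Nutlin-3a), with DESeq2 adjusted p of 1.5e-57 and 1.1e-64 and a standard error of 0.04 in each. No other table called it, with 0.02 and 0.06 for Nutlin-3a and 0.09 and -0.03 for siRFXANK.

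DDIT3 encodes CHOP, a factor induced by ATF4 in lasting stress. It was at 1.12 and 1.10 after siANKRA2 in DMSO and Nutlin-3a (standard errors 0.10 and 0.09), at 0.43 after siRFXANK in Nutlin-3a and at 0.14 there in DMSO, which was not called. Its Nutlin-3a values of 0.22 and 0.20 in siControl and siANKRA2 cells were not called either (DESeq2 adjusted p = 0.0585 and 0.0672), but after centring on the median of the genes with a mean of at least 100, at 0.23 and 0.22, they were. Approximate levels of DDIT3 were 328 and 382 normalized counts in siControl, 713 and 819 in siANKRA2, and 360 and 516 in siRFXANK cells. CEBPG, a dimer partner of ATF4, fell by 0.61 on the log2 scale with Nutlin-3a in siControl cells, and its value of -0.02 in siANKRA2 cells was not called. It was at 0.15 and 0.73 after siANKRA2 and at -0.68 and -0.43 after siRFXANK. CEBPB ranged from 0.02 to 0.77, with its highest value for Nutlin-3a in siControl cells, and ATF5 from -0.30 to 0.10.

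NUPR1, a small chromatin protein induced by stress, is encoded at 28532708 to 28539174 of chromosome 16 (minus strand). Levels of NUPR1 were approximately 702 and 2626 normalized counts in siControl, 386 and 1155 in siANKRA2, and 2098 and 3964 in siRFXANK cells, in DMSO and Nutlin-3a. Nutlin-3a raised NUPR1 by a log2 fold change of 1.90 in siControl (standard error 0.06, DESeq2 adjusted p = 1.4e-213) and 1.58 in siANKRA2 cells (standard error 0.07, DESeq2 adjusted p = 1.3e-110), the only called member past 1 in size in either comparison. It was lower after siANKRA2, at -0.86 in DMSO and -1.18 in Nutlin-3a, and higher after siRFXANK, at 1.58 and 0.59.

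Among the feedback and ATF4 target genes, 4 of 5 were higher after siANKRA2 and none lower, in either treatment, with a median of 0.92 in DMSO and 1.62 in Nutlin-3a. That is 80.0% higher, beside 37.7% and 38.5% of the abundant genes, on few members. PPP1R15A encodes GADD34, which directs the removal of the phosphate from eIF2α and so lets translation resume. The gene spans 48872392 to 48876057 of chromosome 19 (plus strand). Approximate levels were 991 and 1560 normalized counts in siControl, 4643 and 4783 in siANKRA2, and 1748 and 2881 in siRFXANK cells. With siANKRA2, PPP1R15A had log2 fold changes of 2.23 (DMSO; standard error 0.06) and 1.62 (Nutlin-3a; standard error 0.05, DESeq2 adjusted p = 4.5e-197), and with siRFXANK of 0.82 and 0.89. Nutlin-3a raised it by 0.65 in siControl cells, and in siANKRA2 cells its value of 0.04 was not called.

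TRIB3, a pseudokinase that restrains ATF4, was higher after siANKRA2, at 0.92 in DMSO and 1.08 in Nutlin-3a, and lower after siRFXANK, at -0.88 and -0.47 (standard error 0.07 in each of these 4). Its Nutlin-3a values of -0.01 in siControl and 0.15 in siANKRA2 cells were not called. CHAC1 encodes an enzyme that degrades glutathione. Its approximate levels were 279 and 309 normalized counts in siControl, 528 and 955 in siANKRA2, and 253 and 203 in siRFXANK cells. After siANKRA2 CHAC1 was at 0.92 and 1.63, and after siRFXANK at -0.14, not called, and -0.60. Nutlin-3a raised it by 0.85 in siANKRA2 cells, while 0.15 in siControl cells was not called. VLDLR, a lipoprotein receptor gene that ATF4 can induce, fell by 0.35 on the log2 scale with Nutlin-3a in siControl cells and rose by 0.47 in siANKRA2 cells. It was higher after siANKRA2, at 0.47 and 1.28, and after siRFXANK, at 0.59 and 0.58. STC2 had a deposited mean of 7.40 normalized counts, and its values between -1.36 and 1.76 were not called in any table.

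**Figure D3:**
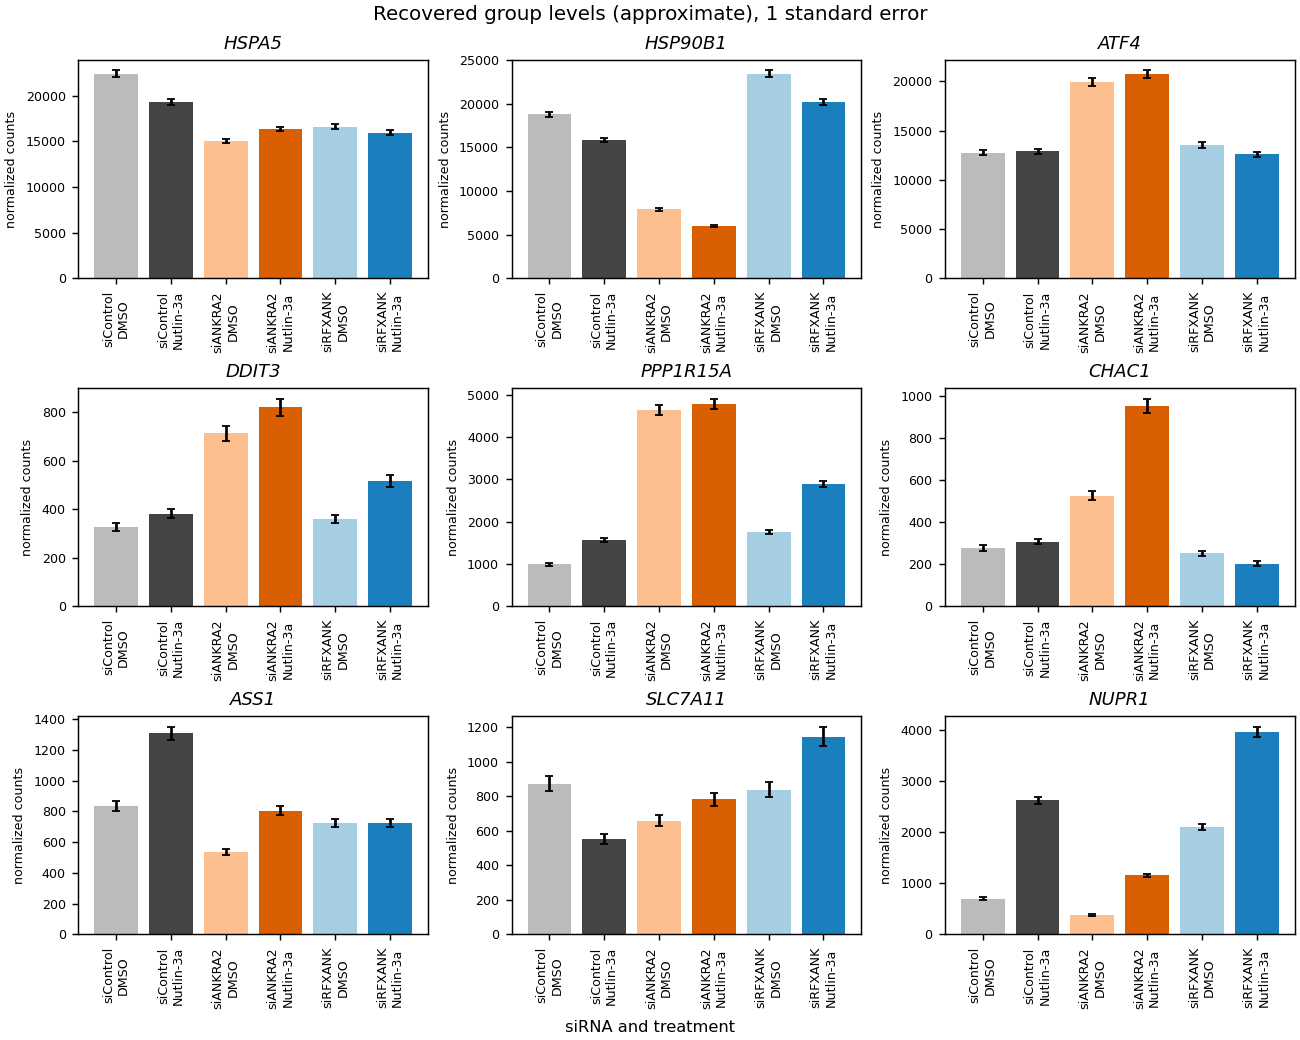
Approximate levels in normalized counts of 9 members (panels) in the 6 groups of siRNA and treatment, with bars of 1 standard error of the group mean from the fitted variance (n = 3 samples a group). PPP1R15A runs from 991 in siControl DMSO to 4783 in siANKRA2 Nutlin-3a, and HSP90B1 is lowest in the siANKRA2 groups.

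Of the 7 amino acid synthesis genes, Nutlin-3a lowered 4 and raised 1 in siControl cells, and raised 5 and lowered 1 in siANKRA2 cells. These are 57.1% lower in siControl, beside 35.1% of the abundant genes, and 71.4% higher in siANKRA2 cells, beside 21.8%. The 5 raised in siANKRA2 cells all share sequence with other genes. Under that share of 10% are PHGDH and SHMT2, both lower in siControl cells, while in siANKRA2 cells SHMT2 was lower (-0.20) and PHGDH not called. PHGDH catalyses the entry step of serine synthesis. Its approximate levels were 8350 and 4608 normalized counts in siControl, 5138 and 4791 in siANKRA2, and 9446 and 5434 in siRFXANK cells. The fall with Nutlin-3a was thus found in siControl (log2 fold change -0.86, standard error 0.05, DESeq2 adjusted p = 8e-73), while in siANKRA2 cells, which started from a lower level, the value of -0.10 was not called. PHGDH was at -0.70 after siANKRA2 in DMSO and at 0.06, not called, in Nutlin-3a, and at 0.18 and 0.24 after siRFXANK.

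PSAT1, the following enzyme of serine synthesis, fell by 0.31 on the log2 scale with Nutlin-3a in siControl cells and rose by 0.33 in siANKRA2 cells (standard error 0.05 in each). After siANKRA2 it was at -0.14 in DMSO and 0.51 in Nutlin-3a, and after siRFXANK at 0.17 and at 0.01, which was not called. PSPH, the last enzyme of that path, was at -0.02, not called, and 0.48 with Nutlin-3a in siControl and siANKRA2 cells. It was lower in all 4 siRNA comparisons, at -0.63 and -0.13 after siANKRA2 and -0.93 and -0.84 after siRFXANK. The mitochondrial folate enzymes SHMT2, between -0.57 and 0.64, and MTHFD2, between -0.37 and 0.88, had their lowest values with Nutlin-3a in siControl cells and their highest after siANKRA2 in Nutlin-3a. ASNS, which makes asparagine, was between -0.52 and 0.92 at a deposited mean of 78.0 normalized counts.

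ASS1, which joins citrulline and aspartate on the way to arginine, is encoded at 130444929 to 130501274 of chromosome 9 (plus strand). Levels of ASS1 were approximately 835 and 1307 normalized counts in siControl, 538 and 805 in siANKRA2, and 723 and 727 in siRFXANK cells. Both siControl and siANKRA2 cells were higher with Nutlin-3a, at log2 fold changes of 0.65 and 0.58 (standard errors 0.07 and 0.08, DESeq2 adjusted p = 2.3e-19 and 2.7e-13). After siANKRA2 ASS1 was at -0.63 in DMSO and -0.70 in Nutlin-3a, and after siRFXANK at -0.21 and -0.85. ASS1 was thus lower in each of the 4 siRNA comparisons, while most members called after siANKRA2 were higher.

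The 4 amino acid transport genes were all higher after siANKRA2 in Nutlin-3a, where 38.5% of the abundant genes were. In DMSO 3 were higher and 1 lower. With Nutlin-3a, 0 were higher and 2 lower in siControl and in siANKRA2 cells, beside 35.1% and 26.8% of the abundant genes lower. After siRFXANK 2 were lower in each treatment, beside 35.4% and 30.6%, and 0 were higher in DMSO and 1 in Nutlin-3a. These counts rest on few members. SLC7A11, the cystine importer of system xc-, is encoded at 138164097 to 138242349 of chromosome 4 (minus strand). Levels of SLC7A11 were approximately 872 and 550 normalized counts in siControl, 658 and 781 in siANKRA2, and 838 and 1144 in siRFXANK cells. Nutlin-3a lowered it in siControl cells, by a log2 fold change of -0.66 (standard error 0.10, DESeq2 adjusted p = 1.1e-09), while 0.25 in siANKRA2 cells was not called. SLC7A11 was at -0.41 and 0.51 after siANKRA2 in DMSO and Nutlin-3a, and after siRFXANK at -0.06, not called, and 1.06. SLC7A5 and SLC3A2 encode the chains of a carrier for large neutral amino acids, and SLC7A1 a carrier for arginine and lysine. After siANKRA2 in DMSO, SLC7A5 was at 0.54, SLC3A2 at 0.95 and SLC7A1 at 0.75, all called. Over the 6 tables SLC7A5 ranged from -0.35 to 0.54, SLC3A2 from -0.19 to 0.95 and SLC7A1 from -0.81 to 0.89.

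Whether the Nutlin-3a response itself differed between siRNAs was tested on the difference of the log2 fold changes (normal test, Benjamini-Hochberg over all genes). For siANKRA2 minus siControl, 17 members had a higher and 6 a lower response, beside 11.4% and 12.5% of all genes and 18.0% and 19.1% of those with a mean of at least 100. The members' median difference was 0.16, against -0.02 over all genes. The amino acid synthesis genes accounted for 5 of the 17, with PHGDH at 0.76 and PSAT1 at 0.65 (standard error 0.07 in each), and the chaperones for 7. Further differences were 0.91 for SLC7A11, 0.81 for VLDLR, 0.71 for CHAC1, 0.59 for CEBPG, 0.55 for SDF2L1 and 0.51 for PSPH, and on the lower side -0.61 for PPP1R15A. Of these, PHGDH, PSAT1, CEBPG, SDF2L1, SLC7A11 and VLDLR fell with Nutlin-3a in siControl cells. Outside the members, CDKN1A rose with Nutlin-3a by a log2 fold change of 3.27 in siControl and 1.42 in siANKRA2 cells, and MDM2 by 3.38 and 2.19. After siANKRA2 in DMSO CDKN1A was at 2.04 and MDM2 at -0.11, which was not called. Whether the smaller rise of these genes bears on the members' differences was not tested.

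For siRFXANK minus siControl, 10 members had a higher and 4 a lower response, beside 11.6% and 9.64% of all genes and 20.9% and 16.8% of those with a mean of at least 100. The higher were 26.3% of the members and the lower 4 of 38, and of the 20 without shared sequence 8 were higher and 1 lower. The called differences of at least 0.5 in size were 1.11 for SLC7A11 (standard error 0.15, Benjamini-Hochberg adjusted p = 2.3e-12), -0.98 for NUPR1 (standard error 0.08, Benjamini-Hochberg adjusted p = 1.9e-30) and -0.64 for ASS1, and SLC7A1 lay just under that size at 0.50. A batch difference that is alike in both treatments does not enter these values. A batch difference that is unlike between DMSO and Nutlin-3a does enter them and cannot be told apart from the siRNA.

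The Nutlin-3a response of siRFXANK cells, for which no table was used, was derived from the others. It called 13 members higher and 15 lower, beside 22.8% and 22.5% of all genes and 34.2% and 36.1% of those with a mean of at least 100. NUPR1 was at 0.92, ERN1 at 0.83, PPP1R15A at 0.72, DDIT3 at 0.52, SLC7A11 at 0.45, DNAJB9 at 0.43 and TRIB3 at 0.39. PHGDH was at -0.80, PSAT1 at -0.48, CEBPG and VLDLR at -0.35, CHAC1 at -0.32, SDF2L1 at -0.27 and HSP90B1 at -0.21, and XBP1 was at 0.13. ATF4 was at -0.10, a call that ended with centring on the median of the genes with a mean of at least 100, at -0.08. The serine synthesis genes PHGDH and PSAT1 thus fell with Nutlin-3a in siControl and siRFXANK cells. ASS1, at 0.01, was not called there, nor were HSPA5 at -0.05, PSPH at 0.07 and ATF6 at -0.04. STC2 was called at -2.21 (standard error 0.87, Benjamini-Hochberg adjusted p = 0.0261), on approximate levels of 6.30 and 1.36 normalized counts, too few to read a size from.

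**Figure D4:**
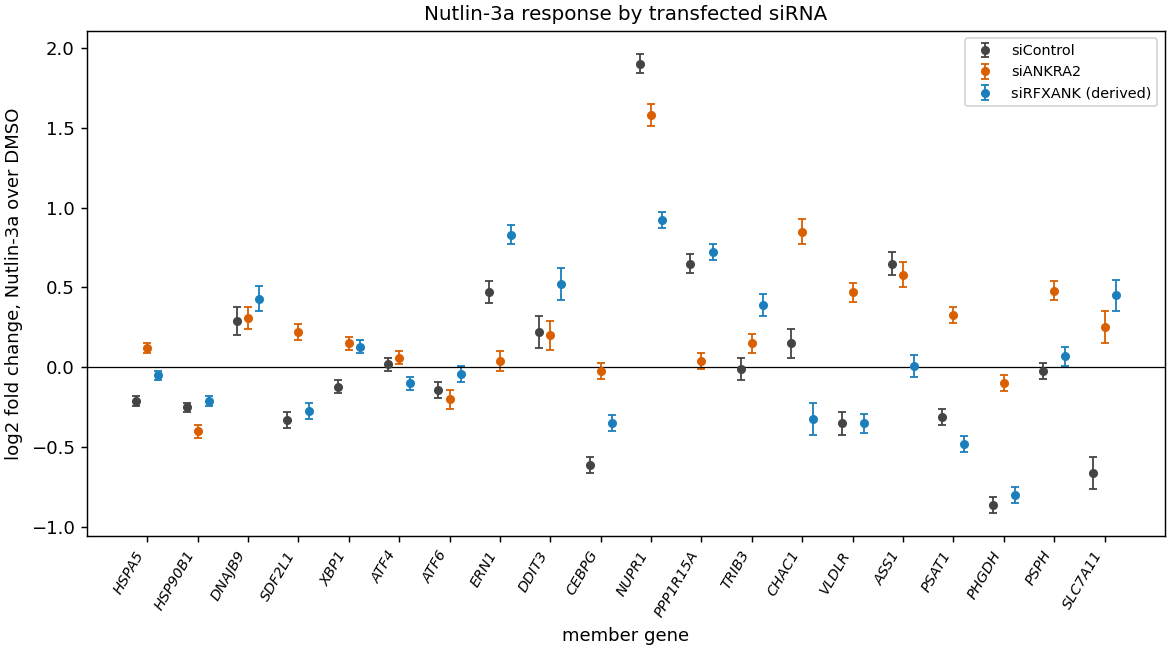
Log2 fold change of Nutlin-3a over DMSO for the 20 members given in full, in siControl, siANKRA2 and siRFXANK cells, with 1 standard error (siRFXANK derived from the other comparisons). SLC7A11 is at -0.66 in siControl and 0.45 in siRFXANK cells, and PHGDH at -0.86 and -0.80.

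Other genes of the pathway were read from 4 lists, whose shares stand beside those of the abundant genes. Of 29 further genes of ER folding and degradation in the tables, 16 were higher and 7 lower after siANKRA2 in DMSO, and 14 and 5 in Nutlin-3a. These are 55.2% and 24.1%, beside 37.7% and 39.2%, and 48.3% and 17.2%, beside 38.5% and 39.6%. After siRFXANK 16 were higher and 10 lower in DMSO, and 14 and 5 in Nutlin-3a, which is 55.2% and 34.5% beside 34.0% and 35.4%, and 48.3% and 17.2% beside 32.1% and 30.6%. OS9, a lectin of ER degradation, was at -1.15 and -1.39 there. With Nutlin-3a, 11 were higher and 7 lower in siControl, and 16 and 2 in siANKRA2 cells. The shares were 37.9% and 24.1%, beside 32.4% and 35.1%, and 55.2% and 6.90%, beside 21.8% and 26.8%.

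Of 14 sensors and partners, 7 were higher and 6 lower after siANKRA2 in DMSO and 7 and 5 in Nutlin-3a, or 50.0% and 42.9%, and 50.0% and 35.7%, of which the lower shares are near those of the abundant genes, 39.2% and 39.6%, and the higher above their 37.7% and 38.5%. After siRFXANK 6 were higher and 6 lower in DMSO and 8 and 5 in Nutlin-3a (42.9% in each direction beside 34.0% and 35.4%, then 57.1% and 35.7% beside 32.1% and 30.6%), with CREB3L2, an ER-bound transcription factor, at -1.11 in DMSO. With Nutlin-3a, 4 were higher and 7 lower in siControl (28.6% and 50.0%, beside 32.4% and 35.1%) and 5 and 6 in siANKRA2 cells (35.7% and 42.9%, beside 21.8% and 26.8%).

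Of the 20 aminoacyl-tRNA synthetases, which charge tRNAs with amino acids, Nutlin-3a lowered 13 and raised 3 in siControl cells, and lowered 11 and raised 6 in siANKRA2 cells. The lower shares were 65.0% and 55.0%, beside 35.1% and 26.8% of the abundant genes, and the higher ones 15.0% and 30.0%, beside 32.4% and 21.8%. After siANKRA2 9 were higher and 8 lower in DMSO and 10 and 8 in Nutlin-3a, with GARS at 1.16 in Nutlin-3a. The 8 of 20 lower are near the abundant shares of 39.2% and 39.6%, and the higher ones, 45.0% and 50.0%, lie above 37.7% and 38.5%. After siRFXANK 9 were higher and 4 lower in DMSO, and 14 and 1 in Nutlin-3a, of which the higher are 45.0% and 70.0%, beside 34.0% and 32.1%, and the lower stand beside 35.4% and 30.6%.

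Of 24 other amino acid response genes, 14 were higher and 5 lower after siANKRA2 in DMSO and 18 and 3 in Nutlin-3a. These are 58.3% and 20.8%, and 75.0% and 12.5%, with the abundant genes at 37.7% and 39.2%, and 38.5% and 39.6%. In that list INHBE was at 2.03 and 2.28 in DMSO and Nutlin-3a, GDF15 at 2.35 and ATF3 at 1.89 in DMSO, and FGF21 at 2.01 and SLC7A3 at 1.99 in Nutlin-3a. The stress hormone gene GDF15 rose with Nutlin-3a by 4.36 in siControl and 2.65 in siANKRA2 cells, and SESN2 by 1.81 and 1.10. Nutlin-3a raised 7 of the 24 and lowered 13 in siControl cells, with ADM2 at 1.07, SLC7A3 at -2.89, FGF21 at -1.84 and SHMT1 at -1.57, and raised 10 and lowered 1 in siANKRA2 cells. The shares were 29.2% and 54.2% in siControl, beside 32.4% and 35.1%, and 41.7% and 4.17% in siANKRA2 cells, beside 21.8% and 26.8%. After siRFXANK 6 were higher and 9 lower in DMSO, and 5 and 10 in Nutlin-3a, beside 34.0% and 35.4%, and 32.1% and 30.6%, the lower being 37.5% and 41.7% of the list. GDF15 was at 2.02 and 1.70 there, SLC43A1 at 1.10 and 1.11, FGF21 at 1.39 in DMSO, SLC38A1 at -1.44 and ALDH1L2 at -1.09 in DMSO. FGF21 had a deposited mean of only 9.69 and SLC7A3 of 35.3 normalized counts.

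Of the 31-base stretches of the longest transcript, the share found in other genes as well was 83.0% for ASNS, 44.6% for MTHFD2, 43.3% for PDIA3, 37.5% for ATF4, 36.8% for PDIA6, 35.8% for DDIT3, 30.0% for ASS1, 23.3% for HSP90B1, 18.8% for HSPA5 and 15.3% for NUPR1, while PPP1R15A, CHAC1, PHGDH and XBP1 shared none. Exons of 16 members are overlapped by a gene on the opposite strand, DDIT3 by MARS and MBD6, VLDLR by VLDLR-AS1, SLC7A11 by SLC7A11-AS1, CEBPB by CEBPB-AS1 and DNAJB9 by PNPLA8 and THAP5, and whether counting used strand is not given in the sources used here.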

How the data were processed

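U2OS RNA-seq of 6 groups of 3 samples was read from 6 comparison tables. Per the labels, the submitters' processing notes name Trimmomatic 0.39, featureCounts 1.6.5, DESeq2 1.20.0 and build hg38; the aligner is not given in the sources used here. Each table gives a mean normalized count per gene, a signal value the authors computed across their samples. Fold changes and standard errors were deposited as log2 values. The Wald score deposited with them is their quotient. The deposited p-value comes with its adjusted p-value. These comparison columns are used as deposited because no values per library were used here; the depth per sample is unknown. The means were equal in all tables and the siControl and siANKRA2 comparisons closed to within 1.4e-14, as in a joint fit.

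Computed here with Python 3.11.15, numpy 2.4.6, pandas 2.3.3 and SciPy 1.17.1 were the differences of Nutlin-3a responses (standard errors added in quadrature, two-sided normal test, Benjamini-Hochberg over all genes), the siRFXANK Nutlin-3a response (siControl response plus the difference of the siRFXANK comparisons, the siControl variance subtracted), and group levels, by least squares of a level and a dispersion per gene to the 6 squared standard errors. The same subtraction gave the deposited siANKRA2 standard errors at a median ratio of 1.00. The tests of response differences and the levels were also run on simulated data. No outcome of that run is given here, so it lends no weight to either. Nothing says that the samples came from separate cultures, so p-values measure the spread between these samples, which may be technical.

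Members and lists were chosen with earlier results of these data known. Values are given for HSPA5, ATF4, DDIT3, XBP1, ATF6, ASS1, members called with a log2 fold change of at least 1 in size in a table and members with a called response difference of at least 0.5, 20 in all; the other 18 are given by range, with some values added after they were seen. Of the other lists, at most the 3 largest rises and falls past 1 are named per comparison. Alternatives were a threshold of 0.01, a minimum log2 value of 1, a minimum mean of 100, recomputed adjusted p-values, centring on the median of genes with that mean and levels scaled to the deposited means.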

Additional observations from a re-analysis of the deposited data

Results flagged for a closer look

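The Nutlin-3a response of 23 members in siANKRA2 cells and of 14 in siRFXANK cells differed from that in siControl cells by the normal test of the difference itself (Benjamini-Hochberg adjusted p under 0.05 over all genes). Each value is the log2 fold change in the knockdown minus that in siControl cells. In siANKRA2 cells 17 of 38 members (44.7%) had a higher response and 6 (15.8%) a lower one. Of the genes with a mean of at least 100, 18.0% had a higher and 19.1% a lower response, so the excess of members was on the higher side only. In siANKRA2 cells the lower responses were -0.61 for PPP1R15A, -0.43 for ERN1, -0.32 for NUPR1, -0.27 for CEBPB, -0.26 for SLC7A5 and -0.16 for HSP90B1. The higher responses in siANKRA2 cells were 0.16 for PDIA4, 0.16 for CALR, 0.17 for CANX, 0.19 for PDIA6, 0.24 for HERPUD1, 0.27 for XBP1, 0.34 for HSPA5, 0.36 for SHMT2, 0.48 for MTHFD2, 0.51 for PSPH, 0.55 for SDF2L1, 0.59 for CEBPG, 0.65 for PSAT1, 0.71 for CHAC1, 0.76 for PHGDH, 0.81 for VLDLR and 0.91 for SLC7A11.

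In siRFXANK cells the lower responses were -0.98 for NUPR1, -0.64 for ASS1, -0.46 for CHAC1 and -0.31 for CEBPB. The higher responses in siRFXANK cells were 0.16 for HSPA5, 0.25 for XBP1, 0.26 for CEBPG, 0.30 for CANX, 0.31 for HERPUD1, 0.36 for ERN1, 0.40 for TRIB3, 0.45 for DNAJC3, 0.50 for SLC7A1 and 1.11 for SLC7A11. Both sets of differences share the siControl samples. In those of siRFXANK, a batch difference that is unlike between DMSO and Nutlin-3a cannot be told apart from the siRNA. No cause of these differences was tested.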

How the results depend on the processing

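No paired analysis was possible because no value of a sample is in the tables, so samples could not be left out in turn, nor another count model or a filter on raw counts be run. The 9 counts of called members stayed within 1.5 times under a threshold of 0.01, a minimum mean of 100, centring on the median of genes with that mean and, for the 6 tables, recomputed adjusted p-values. With centring, 29 in place of 28 members were called in the derived siRFXANK response and 24 in place of 23 in the siANKRA2 response difference, so members given by range changed sides there. Requiring a log2 value of at least 1 in size left, by construction, fewer: 1 member for Nutlin-3a in siControl and 1 in siANKRA2 cells, 5 and 9 for siANKRA2 in DMSO and Nutlin-3a, 1 and 1 for siRFXANK, 1 for the derived siRFXANK response, 0 for the siANKRA2 response difference and 1 for that of siRFXANK. Chosen after seeing the data, leaving out the 18 members with shared sequence left 12 called for Nutlin-3a in siControl and 11 in siANKRA2 cells, 19 and 17 for siANKRA2, 14 and 12 for siRFXANK, 17 for the derived response, and 13 and 9 for the response differences. Fewer are called by construction, since 20 members remain, but the directions were lost unevenly: the 17 higher and 6 lower for Nutlin-3a in siANKRA2 cells became 7 and 4, the 22 and 14 after siANKRA2 in DMSO 16 and 3, the 23 and 9 in Nutlin-3a 16 and 1, and the 7 and 16 for Nutlin-3a in siControl cells 3 and 9. After siRFXANK in DMSO 13 and 13 became 6 and 8, and in Nutlin-3a 13 and 11 became 7 and 5. The derived 13 and 15 became 9 and 8, and the response differences, 17 and 6 for siANKRA2 and 10 and 4 for siRFXANK, became 10 and 3, and 8 and 1.

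Centring turned PSAT1 after siRFXANK in Nutlin-3a from 0.01 to 0.00, just below 0 before rounding and not called either way. Among the 20 members given in full, centring brought calls of DDIT3 with Nutlin-3a in siControl (0.23) and siANKRA2 cells (0.22), TRIB3 (0.17) and SLC7A11 (0.27) in siANKRA2 cells, and PSAT1 in the siRFXANK response difference (-0.17), while ATF4 in the derived response (-0.08) was no longer called; the other 173 log2 values of these 20 members kept their direction and side of the threshold. Scaled to the deposited means, the mean of the 6 group levels moved by more than the spread between samples for 31 members, to 22276 for HSPA5, 17044 for HSP90B1, 491 for DNAJB9, 2289 for DNAJB11, 1285 for DNAJC3, 2071 for SDF2L1, 7175 for PDIA3, 4211 for PDIA4, 14003 for PDIA6, 30821 for CALR, 21948 for CANX, 2073 for HERPUD1, 2458 for XBP1, 12635 for ATF4, 1741 for ATF6, 902 for ERN1, 608 for EIF2AK3, 417 for DDIT3, 2444 for CEBPB, 1561 for CEBPG, 2493 for NUPR1, 2138 for PPP1R15A, 1325 for TRIB3, 487 for CHAC1, 78.0 for ASNS, 939 for ASS1, 1796 for PSAT1, 7120 for PHGDH, 934 for PSPH, 1350 for SLC7A11, 7501 for SLC3A2. The cause was not tested. Library depth is unknown, so its limit cannot be stated.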
